A study of Chlamydomonas reinhardtii with 8 samples.

Results

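The genes HSP22A, HSP22C, HSP22E and HSP22F encode small heat shock proteins of the unicellular green alga Chlamydomonas reinhardtii. They were taken by symbol from a deposited table of messenger RNA levels, which held all 4 of them among 17737 genes. Another 4 genes of the table carry an HSP22 symbol (HSP22B, HSP22D, HSP22G and HSP22H) and are set beside them further on.

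All cultures were strain CC-4532, grown in acetate medium at 24 °C under continuous light. The zinc-deficient group (0 h) had gone through a second culture without added zinc. The resupply groups were those deficient cultures at 1.5, 3 and 4.5 h and, later, 12 and 24 h after zinc chloride had been added to 2.5 µM. The zinc-replete groups are called early and late in the labels, which do not say which of them matched the 0 h culture in age. No group was handled in the same way without receiving zinc, so the time after addition and the zinc itself cannot be told apart. The design text speaks of 4 biological replicates for each condition, but 1 value per gene and condition was deposited. It is an FPKM (fragments scaled to the length of the transcript and the size of the library) with a lower and an upper bound of unstated level. Without replicate values no p-value can be given. The bounds are printed with the levels, and a ratio is followed by the lowest and highest value that the bounds of its 2 conditions allow.

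Total FPKM per condition ranged from 720944 to 886096, and sequencing depth in reads was not available. The 0 h label was checked with ZRT3, a zinc importer of the ZIP family. It stood at 103 FPKM at 0 h, against 0.144 FPKM in early and 0.135 FPKM in late replete cells. At the resupply times it stood between 0.0813 and 0.235 FPKM, so it does not check the other labels. Levels are averages over whole cultures, so fewer cells with a transcript and less transcript per cell cannot be told apart.

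Small heat shock proteins form large oligomers that bind unfolding proteins without using ATP and keep them from aggregating. Bound proteins are later released and refolded by HSP70 with its J-domain partners and by HSP100 disaggregases such as the ClpB proteins. In Chlamydomonas, heat shock transcription is driven by the factor HSF1, and HSP22E and HSP22F are found in the chloroplast, where they bind stromal proteins and membranes during heat and oxidative stress.

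HSP22F (Cre14.g617400) spans 1396617 to 1398388 on chromosome 14 and HSP22E (Cre14.g617450) spans 1398588 to 1400061, with 199 bases between them. HSP22A (Cre07.g318800) spans 893237 to 894946 on chromosome 7 and lies 91 bases from HSP22B. HSP22C (g2954) spans 640717 to 642631 on chromosome 3. Positions are as in the table, counted from 1, and the sources used here do not name their build. The table gives neither strand nor exons. The treatment of reads that fit several genes is not given in the sources used here. Levels of related members are therefore uncertain to that extent.

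HSP22E and HSP22F were abundant transcripts in every condition, and both were highest in zinc-deficient cells. HSP22E stood at 1121 FPKM at 0 h, 306 at 1.5 h, 337 at 3 h, 217 at 4.5 h, 121 at 12 h and 83.3 FPKM at 24 h, with 139 FPKM in early and 92.3 FPKM in late replete cells. At 0 h its bounds were 831 to 1410.45 FPKM, clear of every other condition, where the upper bound reached 399.6 FPKM at most. It ranked 108th of all genes by FPKM at 0 h and 730th at 24 h. HSP22F stood at 553 FPKM at 0 h, 332 at 1.5 h, 304 at 3 h, 199 at 4.5 h, 83.9 at 12 h and 55.3 FPKM at 24 h, with 83.1 FPKM in early and 54.5 FPKM in late replete cells. Its 0 h bounds of 418 to 687 FPKM were also clear of all others, the nearest being those at 1.5 h (276 to 388 FPKM). Added together, HSP22E and HSP22F made up 0.232% of total FPKM at 0 h, 0.0173% at 24 h, 0.0251% in early and 0.0201% in late replete cells.

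HSP22C and HSP22A were scarce, and their levels followed another order over the conditions. HSP22C stood at 5.27 FPKM at 0 h, 8.66 at 1.5 h, 5.59 at 3 h, 3.39 at 4.5 h, 1.96 at 12 h and 2.58 FPKM at 24 h, with 0.816 FPKM in early and 0.765 FPKM in late replete cells. Its highest value came 1.5 h after zinc had been added, where the bounds (7.18 to 10.1 FPKM) lay above those of the other 7 conditions. HSP22A stood at 1.62 FPKM at 0 h, 1.00 at 1.5 h, 1.30 at 3 h, 1.54 at 4.5 h, 0.849 at 12 h and 0.976 FPKM at 24 h, with 0.349 FPKM in early and 0.145 FPKM in late replete cells. All neighbours in the order of its levels had overlapping bounds, while the 0 h bounds (1.06 to 2.17 FPKM) were clear of both replete conditions (upper bounds 0.587 and 0.295 FPKM). The bounds of HSP22A reached 34.4% to 103% of its value to each side, against 15.0% to 33.9% for HSP22E, so the low member is the least precise.

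**Figure D1:**
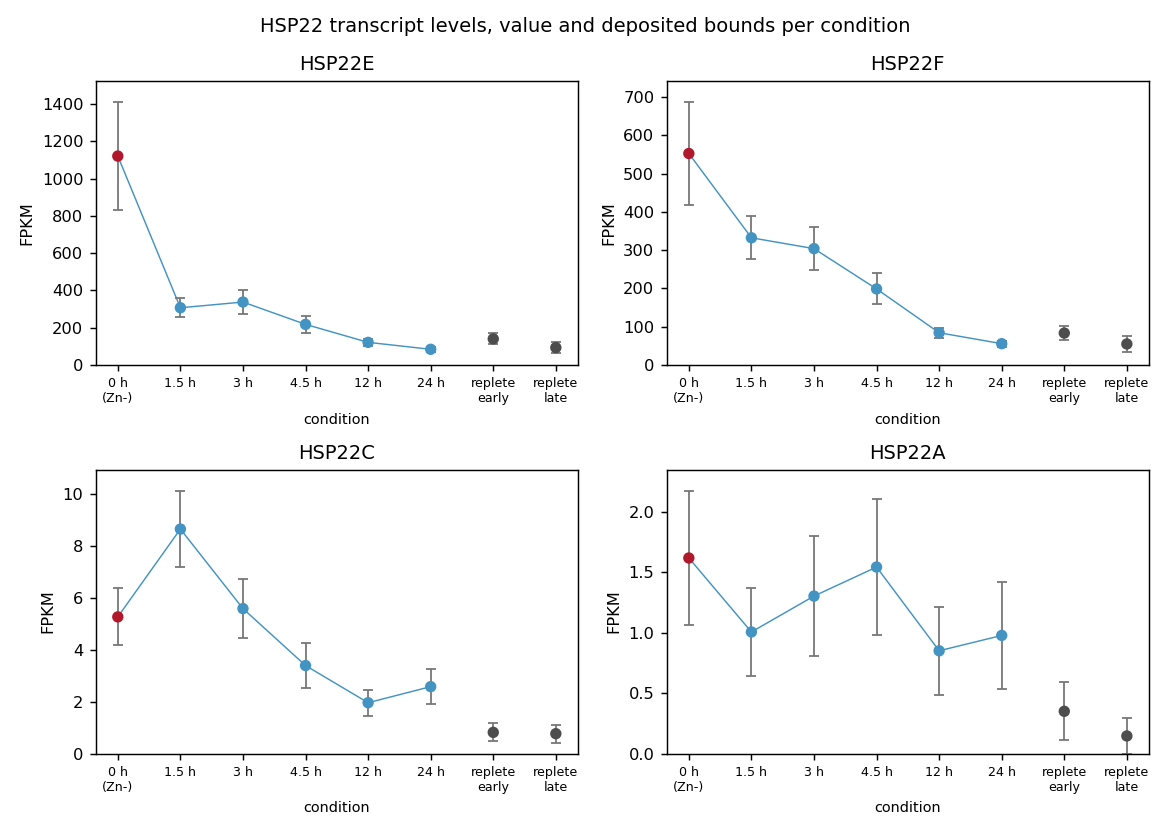
FPKM of HSP22E, HSP22F, HSP22C and HSP22A (one panel each, with its own axis from 0) in the 8 conditions, which are evenly spaced along the axis. Points are the deposited values and bars the deposited bounds, with red for 0 h, blue for resupply and grey for replete cells. HSP22E and HSP22F are highest at 0 h (1121 and 553 FPKM), HSP22C at 1.5 h (8.66 FPKM), and HSP22A varies within wide bounds between 0.145 and 1.62 FPKM.

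Ratios were taken as log2((a + 1)/(b + 1)). A call needed a ratio of at least 1 in size, bounds that stood apart, an OK status on each side and a mean of at least 1 FPKM over all conditions. Rose and fell are written of genes with a call. HSP22C, HSP22E and HSP22F passed the filter on mean FPKM, and HSP22A, at a mean of 0.973 FPKM, lay just under it. It is therefore described by values and never called.

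In zinc deficiency the 3 tested members were called higher against each replete condition. The share of all genes called higher was 7.59% against early and 7.48% against late replete cells, and 5.58% were called higher against both. HSP22E was 8.04-fold higher at 0 h than in early replete cells (4.90 to 12.9) and 12.1-fold higher than in late ones (6.72 to 23.1). Its log2 ratios of 3.00 and 3.59 ranked 76th of 11458 and 52nd of 11460 tested genes. HSP22F was 6.65-fold (4.17 to 10.4) and 10.1-fold (5.58 to 20.2) higher, with log2 ratios of 2.72 and 3.32 that ranked 101st and 64th. HSP22C was 6.46-fold (3.59 to 13.5) and 6.89-fold (3.74 to 15.4) higher, with log2 ratios of 1.79 and 1.83. The added pseudocount makes these log2 values smaller than the folds for so low a gene. HSP22A was 4.63-fold higher (1.81 to 19.7) against early and 11.1-fold higher against late replete cells, where the lower bound of the replete value is 0 and the ratio has no upper limit. The median log2 ratio of the 3 tested members was 2.72 against early replete cells, where the median over all genes tested was -0.09, and 3.32 against late ones, where it was -0.04. HSP22C, HSP22E and HSP22F kept these calls under both other scalings of the conditions.

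**Figure D2:**
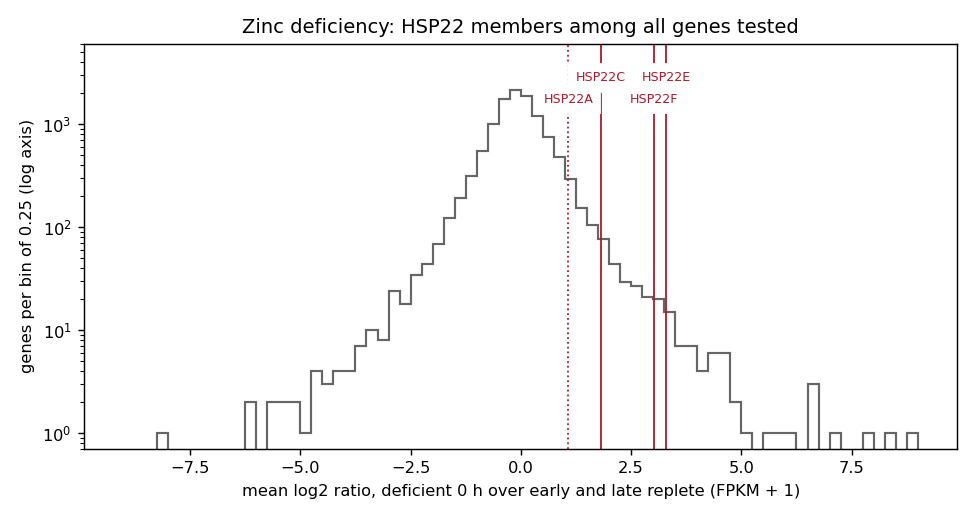
Number of tested genes (log axis, bins of 0.25) by mean log2 ratio of 0 h over early and late replete cells, on FPKM + 1, for 11451 genes. Vertical lines mark HSP22E (3.29), HSP22F (3.02) and HSP22C (1.81), and the dotted line marks HSP22A (1.07), which lay under the filter and is not among the counted genes.

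After zinc addition HSP22E was called lower than at 0 h from 1.5 h on, HSP22F from 4.5 h on and HSP22C at 12 h. By the bounds, the 1.5 h level was 0.181 to 0.430 of the 0 h level for HSP22E and 0.402 to 0.929 for HSP22F. These ranges overlap, so the bounds do not show a slower fall of HSP22F. All comparisons with 0 h share the 0 h value, so they are not independent of each other. At 1.5 h HSP22E was at 27.3% of its 0 h level (log2 ratio -1.87) and fell by the call rule, as did 9.24% of all genes tested. HSP22F was then at 60.1% of its 0 h level (log2 ratio -0.73) with bounds apart, as were 24.4% of all genes on the lower side at any size, and was not called. HSP22C was at 164% (log2 ratio 0.62), also with bounds apart and not called, while 27.2% of all genes were higher with bounds apart at any size. HSP22A was at 62.2%, with overlapping bounds.

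At 3 h HSP22E was at 30.1% of its 0 h level and was called lower, against 5.80% of all genes. HSP22F was at 55.0% (log2 ratio -0.86), with bounds apart as in 15.8% of genes on the lower side. It was not called on the deposited scale, but was with conditions rescaled to equal total FPKM (-1.15). HSP22C was at 106% and overlapped its 0 h bounds. By 4.5 h HSP22F had fallen too, to 35.9% of its 0 h level (log2 ratio -1.47), beside HSP22E at 19.4% (-2.36), where 6.51% of all genes were called lower. HSP22C stood at 64.4% with overlapping bounds.

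By 12 h all 3 tested members had fallen, where the share over all genes was 6.31%. HSP22E was at 10.8% of its 0 h level (log2 ratio -3.21), HSP22F at 15.2% (-2.71) and HSP22C at 37.2% (-1.08). Of 11458 genes tested at 12 h, 35 had a lower log2 ratio than HSP22E. At 24 h HSP22E was at 7.43% (log2 ratio -3.73) and HSP22F at 10.0% (-3.30), and both were called lower, beside 6.92% of all genes. HSP22C was at 48.9% (-0.81) with bounds apart, like 17.8% of genes on the lower side, and was not called. HSP22A was at 60.4% of its 0 h level at 24 h, and its bounds overlapped those at 0 h at each of the 5 resupply times.

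**Figure D3:**
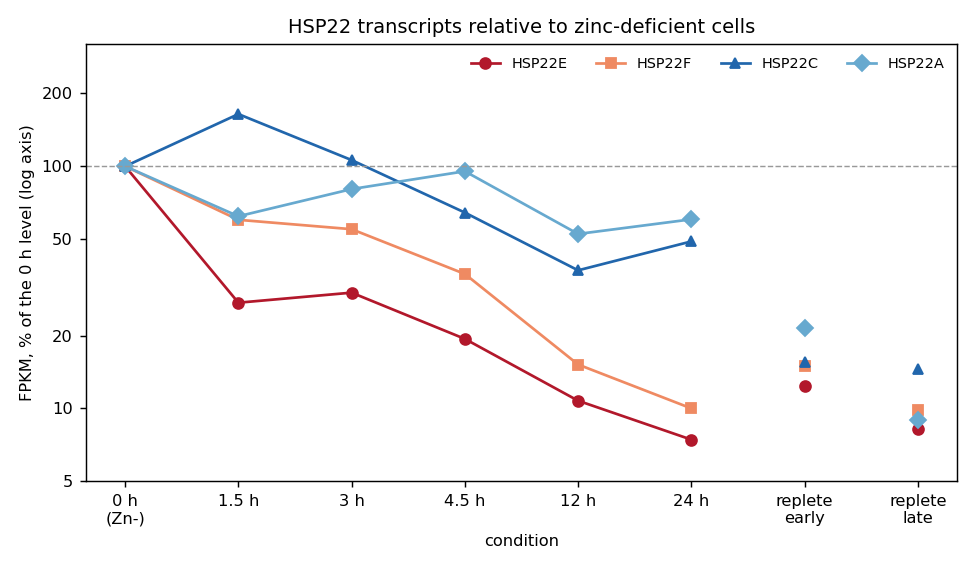
FPKM of the 4 members as a percentage of their 0 h level (log axis) by condition, evenly spaced, with the dashed line at the 0 h level. At 24 h HSP22E (7.43%) and HSP22F (10.0%) lie near their replete levels, while HSP22C (48.9%) and HSP22A (60.4%) lie above theirs, the bounds of HSP22A overlapping those of early replete cells.

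Between neighbouring resupply times few steps passed the call rule. From 1.5 to 3 h HSP22E (337 at 3 h, against 306 FPKM at 1.5 h) and HSP22F (304 against 332 FPKM) had overlapping bounds, and HSP22C was at 5.59 FPKM at 3 h, against 8.66 FPKM at 1.5 h, with bounds apart and a log2 ratio of -0.55. Over all genes 10.6% were lower with bounds apart at that step. From 3 to 4.5 h all 3 tested members were lower with bounds apart, at 60.7% (HSP22C), 64.4% (HSP22E) and 65.3% (HSP22F) of the 3 h level. None was called at that step. Over all genes 3.87% were lower with bounds apart there and 0.0958% were called lower. From 4.5 to 12 h HSP22F fell, to 42.3% of its 4.5 h level (log2 ratio -1.23), beside 1.27% of all genes called lower. HSP22E, at 55.5% (-0.84), and HSP22C, at 57.7% (-0.57), were lower with bounds apart, as were 15.5% of genes, and not called. From 12 to 24 h HSP22E (69.1%) and HSP22F (65.9%) were again lower with bounds apart, as were 3.59% of all genes. Neither was called, and 0.454% of all genes were called lower. HSP22C stood at 132% of its 12 h level with overlapping bounds.

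At 24 h HSP22E and HSP22F stood near or below their replete levels and HSP22C above its own. HSP22E, at 83.3 FPKM, overlapped the bounds of late replete cells (92.3 FPKM) and lay below those of early ones (139 FPKM), with log2 ratios of -0.15 and -0.74 and no call. HSP22F, at 55.3 FPKM, likewise overlapped late (54.5 FPKM) and lay below early replete cells (83.1 FPKM), with log2 ratios of 0.02 and -0.58. Such a lower value with bounds apart against early replete cells was seen in 1.35% of all genes tested. HSP22C, at 2.58 FPKM, was 3.16-fold above early (1.64 to 6.90) and 3.37-fold above late replete cells (1.71 to 7.83), in each case with bounds apart. Against early cells 0.986% of genes were higher with bounds apart. Its log2 ratio of 1.02 against late cells was called, as in 0.602% of genes. The ratio of 0.98 against early cells was not called and ranked 18th of 11465 genes, with 0.140% of genes called higher. Rescaling to equal totals exchanged these calls, with 0.96 against late and 1.04 against early cells. HSP22A, at 0.976 FPKM, was clear of the late replete bounds and overlapped the early ones (0.110 to 0.587 FPKM).

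On the log2(FPKM + 1) scale, HSP22E had covered 56.7% of the distance from its 0 h to its mean replete level at 1.5 h, 97.3% at 12 h and 113% at 24 h. HSP22F had covered 24.3%, 89.6% and 109% at these times. HSP22C moved away from the replete level at 1.5 h (-34.5%) and had covered 59.9% at 12 h and 44.7% at 24 h.

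Late and early replete cells did not differ in any called member. HSP22E was at 92.3 FPKM in late and 139 FPKM in early cells, HSP22F at 54.5 and 83.1 FPKM, and HSP22C at 0.765 and 0.816 FPKM, all with overlapping bounds. Calls between late and early cells covered 0.741% of all genes as higher and 0.689% as lower.

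The ratio of the adjacent genes was compared across conditions. HSP22E exceeded HSP22F 2.03-fold at 0 h (1.21 to 3.37 by the bounds of both genes), while the ratio was 0.921 at 1.5 h (0.658 to 1.29), 1.11 at 3 h, 1.09 at 4.5 h, 1.44 at 12 h and 1.51 at 24 h (1.11 to 2.04). It was 1.68 in early (1.09 to 2.57) and 1.69 in late replete cells (0.814 to 3.63). The value at 1.5 h was the lowest and that at 0 h the highest, but their outer limits overlap between 1.21 and 1.29, so the deposited bounds do not separate even these. FPKM is scaled to length, which allows this comparison of levels between genes.

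**Figure D4:**
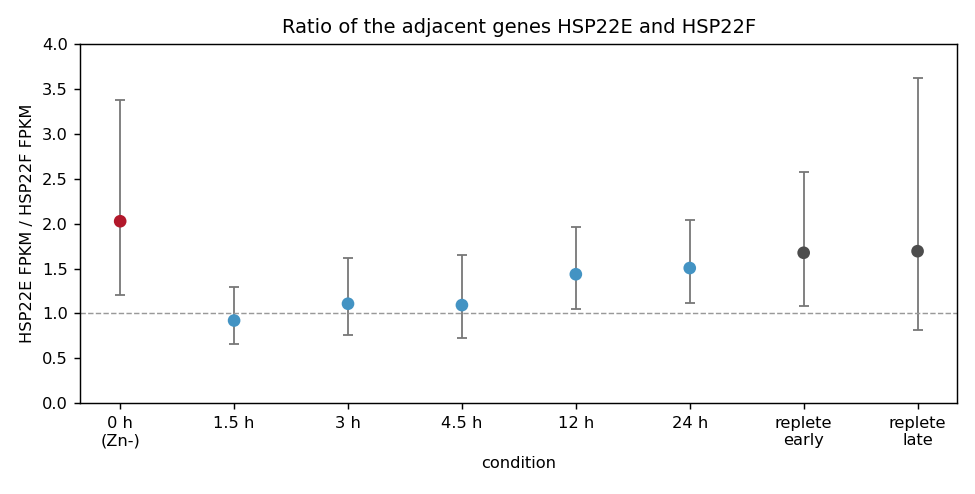
Ratio of HSP22E to HSP22F FPKM by condition, with bars from the lowest to the highest ratio the deposited bounds of both genes allow and a dashed line at 1. The ratio is 2.03 at 0 h, between 0.921 and 1.11 from 1.5 to 4.5 h, and 1.68 and 1.69 in replete cells.

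Genes with the most similar course were sought by Pearson's r of log2(FPKM + 1) over the 8 conditions, among 2706 genes (2707 for HSP22A) with an SD of at least 0.5 on that scale. These r values describe 8 points that share their libraries and processing, and a large step between 0 h and the other conditions is enough for a high value. Among genes with a symbol, HSP22F was most like RDP1 (r = 0.994), the sulfate transporters SLT2 (0.992) and SLT1 (0.992), RDP3 (0.991) and SELW2 (0.989). SLT1 stood at 218 FPKM at 0 h, 95.6 at 1.5 h and 1.45 FPKM at 24 h, with 1.69 FPKM in early and 1.14 FPKM in late replete cells. HSP22E was most like NED1 (0.987), TRZ1 (0.987), SELW2 (0.975), the J-domain gene DNJ5 (0.971) and RDP4 (0.967). At r of 0.9 or more there were 217 genes for HSP22E (8.02%) and 209 for HSP22F (7.72%), so their course was a common one.

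HSP22C was most like VSP3 (r = 0.978), HDH1 (0.957), the glutathione S-transferase gene GST1 (0.948), LEU1L (0.947) and the calcium ATPase gene ACA4 (0.947), and 87 genes reached 0.9. GST1 stood at 30.7 FPKM at 0 h, 43.8 at 1.5 h, 42.0 at 3 h, 26.1 at 4.5 h, 13.9 at 12 h and 8.95 FPKM at 24 h, with 5.59 FPKM in early and 6.50 FPKM in late replete cells. Like HSP22C, it was highest at 1.5 h and lowest in replete cells. HSP22A was less closely matched among genes with a symbol, with UBC9, a conjugating enzyme of the SUMO pathway, at 0.874. MFT10 was at 0.872, PHD1 at 0.869, FAP280 at 0.864 and SKP1, a ubiquitin ligase subunit, at 0.860. Over all genes compared with HSP22A, 3 reached 0.9 and the highest r was 0.975. Among the members themselves, r was 0.954 for HSP22E with HSP22F, 0.844 for HSP22C with HSP22F, 0.701 for HSP22C with HSP22E, and between 0.675 and 0.796 for HSP22A with the others.

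Of the other HSP22 genes, HSP22B passed the filter and was highest at 0 h. HSP22B stood at 4.78 FPKM at 0 h, 0.850 at 1.5 h, 0.808 at 3 h, 0.958 at 4.5 h, 0.513 at 12 h and 0.490 FPKM at 24 h, with 0.341 FPKM in early and 0.366 FPKM in late replete cells. It was called higher at 0 h against both replete conditions (log2 ratios 2.11 and 2.08), as were 5.58% of all genes. It was called lower at all 5 resupply times, which share the 0 h value, beside 5.80% to 9.24% of all genes. It passed the filter through its 0 h value, with a mean of 0.618 FPKM over the other 7 conditions, so that these calls are a description only. At 1.5 h it was at 17.8% of its 0 h level, whereas its neighbour HSP22A was at 62.2%. HSP22D, HSP22G and HSP22H had means of 0.333, 0.00446 and 0.0842 FPKM and were not tested. HSP22D was at 0.147 FPKM at 0 h, against 0.438 FPKM in early and 0.764 FPKM in late replete cells, with bounds apart from the late value alone.

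The HSP70 system, which refolds proteins released by small heat shock proteins, gave 3 higher and 1 lower of 39 tested genes at 0 h against both replete conditions, beside 5.58% and 5.76% over all genes. Its median log2 ratio was 0.25, beside -0.07 over all genes tested. The higher ones encode J-domain proteins, which deliver substrates to HSP70. Most genes of that list carry J-domain symbols (DNJ or CDJ). DNJ31 was at 3.88 FPKM against 0.2496 and 0.193 in early and late replete cells, DNJ15 at 8.32 FPKM against 0.621 and 0.0489, and DNJ5 at 18.0 FPKM against 4.09 and 4.17. DNJ13 was the lower one, at 2.04 FPKM against 6.51 and 6.86. HSP70A, the cytosolic HSP70, stood at 347 FPKM at 0 h, against 281 FPKM in early and 167 FPKM in late replete cells, and was called higher against the late ones. At 1.5 h it had risen to 748 FPKM, a call that was lost at equal totals (log2 ratio 0.99, against 1.11 as deposited). HSP70B, the chloroplast HSP70, stood at 101 FPKM at 0 h, against 112 FPKM in early and 81.0 FPKM in late replete cells. It was at 182 FPKM at 1.5 h and was not called. In all, 4 of the 39 HSP70 system genes rose and 2 fell at 1.5 h, where 12.0% and 9.24% of all genes did so, and the counts were 2 and 3 at equal totals. They include HSP70D (11.5 FPKM at 1.5 h, against 2.58 FPKM at 0 h), DNJ31 (12.9 against 3.88 FPKM) and DNJ25 (37.9 against 18.1 FPKM) on the higher side, and CDJ3 (7.79 against 19.0 FPKM) and DNJ5 (7.02 against 18.0 FPKM) on the lower side. DNJ25 lost its call under both rescalings.

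Other lists had 0 calls against both replete conditions on the deposited scale. These were HSP90 system genes (4 tested), HSP100 and other Clp genes (7 tested), chaperonins (16 tested) and the heat shock factors HSF1 and HSF2. Over all genes 5.58% were called higher and 5.76% lower against both, so 0 calls in lists this small lie near the share. Their median log2 ratios were 0.56, 0.19, -0.18 and 0.53, beside -0.07 over all genes tested. Against late replete cells alone HSP90A was called higher (285 FPKM at 0 h, against 123 FPKM), beside 7.48% of all genes called higher there. Against early ones alone CPN60A (55.1 against 118 FPKM) and CPN60B2 (97.0 against 197 FPKM) were called lower, beside 8.82% of all genes. Equal totals ended both of the chaperonin calls. CLPB3, the chloroplast disaggregase, stood at 28.6 FPKM at 0 h, against 14.2 FPKM in early and 18.8 FPKM in late replete cells, and both rescalings made it higher against early cells (log2 ratios 1.24 and 1.01, against 0.96 as deposited). It fell to 12.2 FPKM at 1.5 h, as did CLPD1 (9.19 FPKM at 1.5 h, against 20.1 FPKM at 0 h), and 2 of 7 genes of that list were lower, beside 9.24% of all genes. HSF1 stood at 9.64 FPKM at 0 h, against 5.28 FPKM in early and 4.25 FPKM in late replete cells, and was called higher against the late ones. Equal totals kept that call and made HSF1 higher against early cells too (log2 ratio 1.02, against 0.76 as deposited). HSF1 was at 11.1 FPKM at 1.5 h, overlapping its 0 h bounds. HSF2 stood at 7.04 FPKM at 1.5 h, 5.11 FPKM at 0 h, 4.51 FPKM in early and 4.29 FPKM in late replete cells, and was not called in any of these comparisons.

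Chaperonins gave 6 higher and 1 lower of 16 at 1.5 h, beside 12.0% and 9.24% over all genes, while their median log2 ratio of 0.01 was close to the 0.02 of all genes tested. The largest ratios were those of CPN60A (270 FPKM at 1.5 h, against 55.1 FPKM at 0 h), CPN60B2 (403 against 97.0 FPKM), CPN60B1 (104 against 31.2 FPKM) and CPN20 (323 against 111 FPKM), subunits of the chloroplast chaperonin and its cofactor. The lower one was CPN2 (3.74 against 10.6 FPKM). The higher count was 5 under both rescalings, which ended the call of CPN11. HSP90C, the chloroplast HSP90, was higher too (91.2 FPKM at 1.5 h, against 42.9 FPKM at 0 h), a call lost at equal totals. These chloroplast chaperones are named because they were called higher. CLPB3, the chloroplast disaggregase, was called lower (12.2 FPKM at 1.5 h, against 28.6 FPKM at 0 h). So was HSP22E (306 against 1121 FPKM), while HSP22F (332 against 553 FPKM) was lower without a call.

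**Figure D5:**
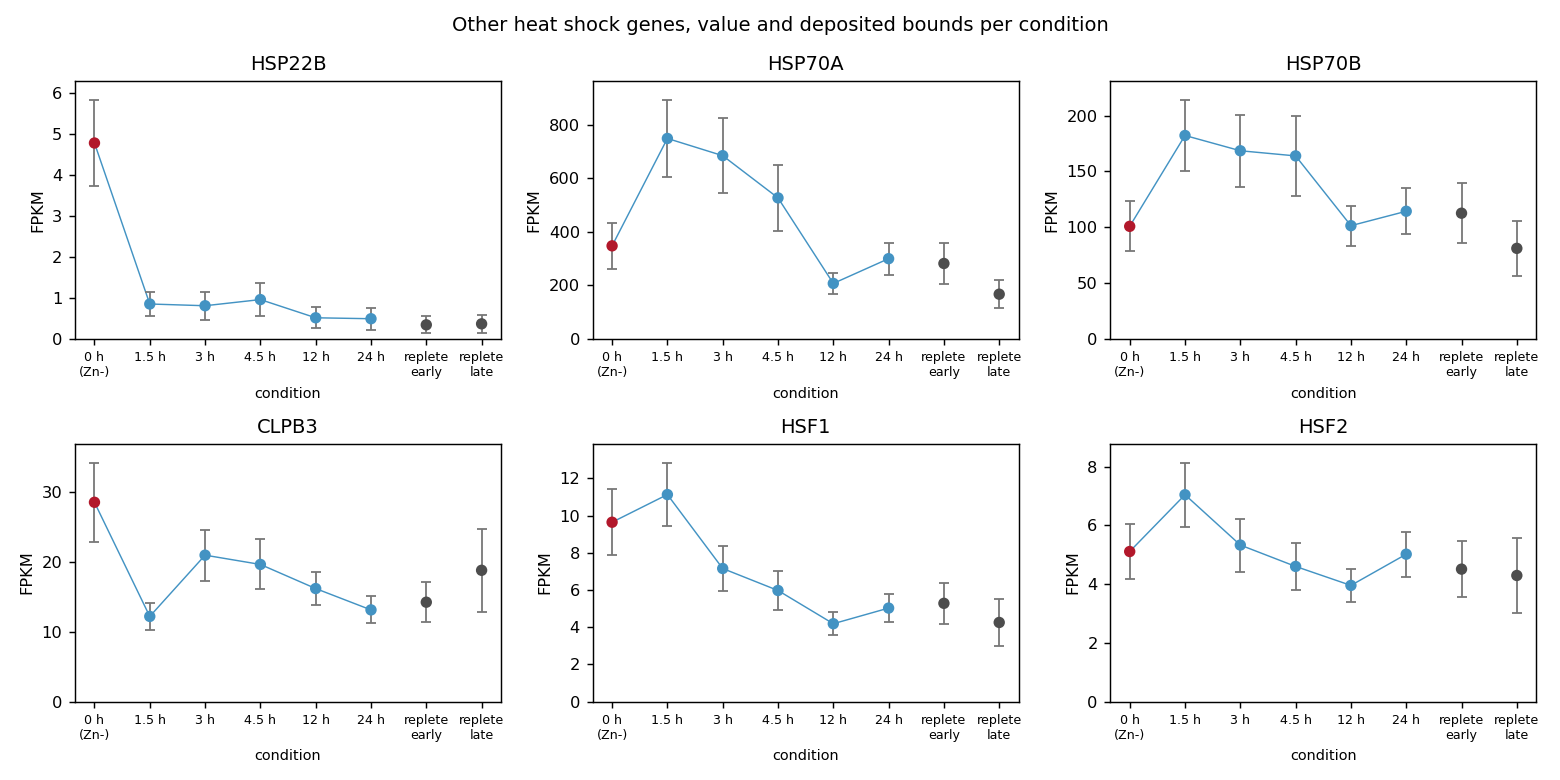
FPKM of HSP22B, HSP70A, HSP70B, CLPB3, HSF1 and HSF2 in the 8 conditions, with deposited bounds, colours and spacing as in the plot of the 4 members. HSP22B (4.78 FPKM) and CLPB3 (28.6 FPKM) are highest at 0 h, and HSP70A (748 FPKM), HSP70B (182 FPKM), HSF1 (11.1 FPKM) and HSF2 (7.04 FPKM) at 1.5 h.

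The list for plastid proteases and membrane quality control matched DEG genes alone, of which 7 were tested. They were taken by symbol, and the location of their proteins was not checked. DEG11, a protease of the DegP family, was higher at 0 h against both replete conditions (119 FPKM against 23.9 and 20.6), as were 5.58% of all genes. At 1.5 h DEG9 rose to 72.7 FPKM, against 11.5 FPKM at 0 h, and DEG1 fell to 5.17 FPKM, against 20.7 FPKM at 0 h, beside 12.0% of all genes called higher and 9.24% called lower. Both rescalings added a lower call of DEG11 (59.0 FPKM at 1.5 h, against 119 FPKM at 0 h). No gene carried the symbol VIPP1, VIPP2 or DEG1C, so none was analysed under these names.

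Antioxidant enzymes gave 4 higher and 3 lower of 31 genes at 0 h against both replete conditions, beside 5.58% and 5.76% over all genes. The higher ones were GST1, GPX1 (72.4 FPKM against 21.8 and 21.0), the peroxidase gene GPX5 (152 FPKM against 62.7 and 70.2) and the methionine sulfoxide reductase gene MSRA5 (29.1 FPKM against 11.3 and 13.7). The lower ones were MSD3, a manganese superoxide dismutase (2.50 FPKM against 19.2 and 16.0), the catalase gene CAT1 (55.8 FPKM against 167 and 211) and MSRA2 (0.917 FPKM against 3.43 and 4.15). At 1.5 h 10 of the 31 fell and 1 rose, with APX1 (33.4 FPKM at 1.5 h, against 131 FPKM at 0 h), GST3 (8.32 against 32.9 FPKM), MSRA5 (10.1 against 29.1 FPKM) and MSD1 (156 against 415 FPKM) showing the largest falls and GSR1 the rise (35.2 against 16.8 FPKM), which was lost at equal totals. Over all genes 9.24% were called lower and 12.0% higher at 1.5 h. The list median then was -0.42, beside 0.02 over all genes tested.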

How the data were processed

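Polyadenylated RNA libraries of 8 conditions were made with a stranded kit, per the labels' protocols, and the submitters' processing notes name TopHat2 and Cuffdiff. The authors deposited FPKM values per gene and condition with lower and upper bounds. The sources used here do not state versions, genome build, the level of the bounds, the treatment of multiply mapped reads or the way replicates were combined. All 8 conditions were matched to columns by name, with 0 columns left unused. Samples were grouped by their time point label, and each group has 1 value.

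Ratios used a pseudocount of 1 FPKM, in Python 3.11.15 with pandas 2.3.3. Calls required a log2 ratio of at least 1 in size, bounds apart, both statuses OK and a mean FPKM of at least 1 (11498 genes), and were made over the whole table for 14 comparisons. Alternatives changed the pseudocount, the filter, the fold, the use of bounds and the scaling. The members and lists were chosen with earlier results of these data known. Genes named are the members, other HSP22 genes, up to 4 called genes per list and direction (deficiency, 1.5 h), HSF1, HSF2, HSP70A, HSP70B and CLPB3, and the 5 symbols most like each member. ZRT3, used to check the 0 h label, and the genes that flank the members are named too. CPN11 and HSP90A are named outside this rule, chosen after their values were seen.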

Additional observations from a re-analysis of the deposited data

How the results depend on the processing

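Of 760 values recomputed under alternatives, 717 stayed on the same side of the call rule (counts within 1.5 times). HSP22A lay under the filter in every setting that kept one, so its values could not change side there. Of the 504 member ratios among the 760, 5 changed sign, none of them called. Only rescaling could change a sign, because the other settings keep the order of the values compared. Equal totals turned HSP22C at 3 h against 0 h (0.07 as deposited, -0.17) and in late against early replete cells (-0.04, 0.08), HSP22E at 3 h against 1.5 h (0.14, -0.04) and HSP22F at 24 h against late replete cells (0.02, -0.11), and median-of-ratios factors turned HSP22C at 3 h (-0.0076). HSP22E and HSP22F kept their calls against both replete conditions under all alternatives. With a fold threshold of 4, HSP22C lost its calls at 0 h against early (1.79) and late replete cells (1.83), at 12 h (-1.08) and at 24 h against late replete cells (1.02), HSP22E at 1.5 h (-1.87) and 3 h (-1.73), and HSP22F at 4.5 h (-1.47) and from 4.5 to 12 h (-1.23). Members called lower were then 0 at 1.5 and 3 h, 1 at 4.5 h and 0 from 4.5 to 12 h, and 0 were higher at 24 h against late replete cells. A mean FPKM of at least 5 removed HSP22C, and with it these 4 calls (same ratios), since fewer genes were tested. A pseudocount of 5 reduced its ratios to 0.82, 0.83, -0.56 and 0.39, ending all 4. A pseudocount of 0.1 gave HSP22C calls at 24 h against 0 h (-1.003) and against early replete cells (1.55, 1 member higher). Equal totals, which moved the median of all genes by up to 0.23, gave calls of HSP22F at 3 h (-1.15, 2 members lower) and of HSP22C at 24 h against early cells (1.04, 1 member higher), and ended that against late ones (0.96, 0 higher). Without a filter HSP22A was called at 0 h against late replete cells (1.19). With no filter and a pseudocount of 0.1 together, chosen after seeing the data, it was called against early (1.94) and late cells (2.81) and at 24 h against late cells (2.13, 2 members higher). The cause of these differences was not tested beyond what each setting does by construction. Of the 5 symbols most like each member, a pseudocount of 0.1 kept 1 for HSP22A and 3 each for HSP22C and HSP22E. No paired analysis was possible because each condition has 1 deposited value and no replicate numbers. Depth in reads was not available, so no counting error could be given beside the deposited bounds.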

Other observations

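Of the genes that flank the 4 members, HSP22 genes aside, RSP14, Cre14.g617350 and Cre07.g318750 passed the filter. None of them was called in deficiency against either replete condition. Over all genes 7.59% were called higher and 8.82% lower against early cells, and 7.48% and 7.64% against late ones. RSP14, a radial spoke protein gene, lies 1 base from HSP22E and stood at 3.50 FPKM at 0 h, against 7.64 FPKM in early and 7.33 FPKM in late replete cells. It was not called in these comparisons (log2 ratios -0.94 and -0.89). Cre14.g617350 lies 6 bases from HSP22F and stood at 7.13 FPKM at 0 h, against 4.78 FPKM in early and 10.0 FPKM in late replete cells, also without a call. It fell to 2.04 FPKM at 1.5 h (log2 ratio -1.42). Cre07.g318750, 702 bases from HSP22A, was higher at 1.5 h, at 185 FPKM, against 56.5 FPKM at 0 h (log2 ratio 1.69), while HSP22A was at 1.00 FPKM at 1.5 h, against 1.62 FPKM at 0 h. The flanking genes of HSP22C had means of 0.914 FPKM (g2953) and 0.262 FPKM (g2955), under the filter, and were not tested. At 0 h they were at 1.02 FPKM and 0.0767 FPKM.

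DNJ15 and DNJ31, J-domain genes called higher in deficiency, were highest at 1.5 h like HSP22C, and are singled out here after their values were seen. DNJ15 stood at 8.32 FPKM at 0 h, 17.3 FPKM at 1.5 h and 0.0554 FPKM at 24 h, and DNJ31 at 3.88, 12.9 and 0.193 FPKM. At 1.5 h against 0 h DNJ31 was called higher (log2 ratio 1.51), beside 12.0% of all genes, and DNJ15 was not called (0.98). Both were called lower at 24 h than at 0 h, as were 6.92% of all genes. HSP22C was at 2.58 FPKM at 24 h, against 5.27 FPKM at 0 h, and was not called.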
